A study of Homo sapiens with 4 samples.

Results

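The comparison described here set LAPC-4 cells given R1881 at 0.1 nM against untreated LAPC-4 cells, over the human microRNAs (miRNAs) that could be seen on the arrays. LAPC-4 is an established human prostate cancer line with a working androgen receptor, and R1881 is a synthetic androgen. All cells were first held for 24 h in androgen-free medium made with 10% charcoal-stripped serum, the untreated ones being the 0 nM sample of the same dose series. Labelled total RNA (10 µg, dye Cy3) was hybridized to custom CombiMatrix oligonucleotide arrays, and 4 arrays were made in all, 1 each for 0, 0.1, 1 and 10 nM. The comparison therefore rests on 1 array a side, each from 1 RNA sample of 1 cell line, and the length of exposure to R1881 is not given clearly in the labels. No difference below has a replicate check, no test was possible, and "higher" and "lower" describe these 2 arrays.

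A miRNA was included when its perfectly matched human probe was brighter than 95% of the 2-mismatch probes on either array. A 2-mismatch probe is a copy of a miRNA probe with 2 wrong bases, and that level, 134 intensity units at 0.1 nM and 118 in untreated cells, serves as the detection limit. Of 455 human miRNA probes, 136 were included: 114 exceeded the limit on both arrays, 7 at 0.1 nM only and 15 in untreated cells only. Nearest to the limit on the inside was miR-136, with 130.75 units at 0.1 nM and 118 in untreated cells, and nearest on the outside was miR-18b, with 122.75 units at 0.1 nM and 117 units in untreated cells.

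MicroRNAs are short RNAs that guide Argonaute proteins to messenger RNAs, mostly through pairing of the seed, bases 2 to 8 of the mature strand, and lower the output of those messengers. miRNAs with the same seed form families with overlapping targets, and many are cut from shared precursor transcripts encoded in genomic clusters. In prostate cells the androgen receptor, once bound by androgen, acts as a transcription factor, and both miRNA genes and protein-coding genes are among those it regulates. Hybridization alone cannot assign the signal of near-identical family members to one of them.

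Mature sequences of many of the miRNAs on which the results turn are given here by seed, with the seed in capitals, 5′ to 3′, as listed in RefSeq for GRCh38.p14. In all, a mature sequence matched by name was used for 118 of the 136 miRNAs. None was used for miR-30b, miR-30d or miR-594, so these are absent from the sequences, seed groups, genomic clusters and base composition below. The first set shares the seed of the miR-15/16 family, whose members differed widely among themselves.
miR-16: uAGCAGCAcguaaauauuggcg
miR-15a: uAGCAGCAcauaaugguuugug
miR-15b: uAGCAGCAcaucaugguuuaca
miR-195: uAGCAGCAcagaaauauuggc
miR-497: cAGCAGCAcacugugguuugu

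The next sequences belong to the other bright miRNAs that were higher at 0.1 nM, with miR-148b shown beside miR-148a because the pair shares a seed and parted in signal.
miR-19b: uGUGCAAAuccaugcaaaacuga
miR-106a: aAAAGUGCuuacagugcagguag
miR-20b: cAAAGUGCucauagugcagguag
miR-29c: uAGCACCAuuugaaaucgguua
miR-148a: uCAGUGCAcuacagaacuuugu
miR-148b: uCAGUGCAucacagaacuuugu
miR-21: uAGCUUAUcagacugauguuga

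The third set holds miRNAs that were lower at 0.1 nM, including the 3 sharing the miR-99 seed and the miR-125b and let-7a strands encoded beside them.
miR-99a: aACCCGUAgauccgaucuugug
miR-99b: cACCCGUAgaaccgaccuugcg
miR-100: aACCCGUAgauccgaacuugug
miR-125b: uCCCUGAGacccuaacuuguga
let-7a: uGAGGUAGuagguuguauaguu
miR-30a-5p: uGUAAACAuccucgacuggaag
miR-192: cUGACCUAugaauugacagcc

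The last pair are the highest and the lowest ratio of the comparison. Among the 118 miRNAs with a sequence used here they are also the extremes of base composition, at 25% and 90.9% G plus C.
miR-568: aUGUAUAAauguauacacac
miR-663: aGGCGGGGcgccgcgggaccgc

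Most miRNAs had nearly the same signal at 0.1 nM as in untreated cells. Over the 136 miRNAs the median signal was 204.75 units at 0.1 nM and 198 units in untreated cells, and the mean was 407 units at 0.1 nM and 371.03 units in untreated cells. Before any scaling the median ratio was 1.07-fold, a log2 shift of 0.098, with 35 miRNAs below the untreated signal and the others above it. Ratios were therefore centred on that median, which puts 68 above 0 and 68 below by construction, and every log2 ratio below is centred unless stated otherwise. The centred log2 ratios ran between −0.40 and 0.76 with an SD of 0.19 across miRNAs, and the middle of the distribution was narrow, with quartiles at −0.10 and 0.12. The direction of a small ratio depends on the scaling: 74.3% of the miRNAs lay above 0 without centring, 78.7% when centred on all human probes, 46.3% after cyclic loess and 35.3% after quantile normalization.

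At a fold of 1.5, 1 of 136 miRNAs (0.735%) was higher at 0.1 nM and 0 of 136 (0%) were lower. At a smaller threshold, a log2 ratio of 0.322 or more in size, 11 (8.09%) were higher and 1 (0.735%) was lower. The 11 were miR-326, miR-19b, miR-346, miR-605, miR-629, miR-16, miR-30b, miR-640, miR-594, miR-211 and miR-568, and the 1 lower was miR-663. Of the 11, 6 were above the detection limit on both arrays and 3 (miR-346, miR-640 and miR-568) had a 2-mismatch probe at least as bright as the matched probe on an array. That leaves 4 seen on both arrays with a dimmer mismatch probe: miR-16, miR-19b, miR-30b and miR-594.

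**Figure D1:**
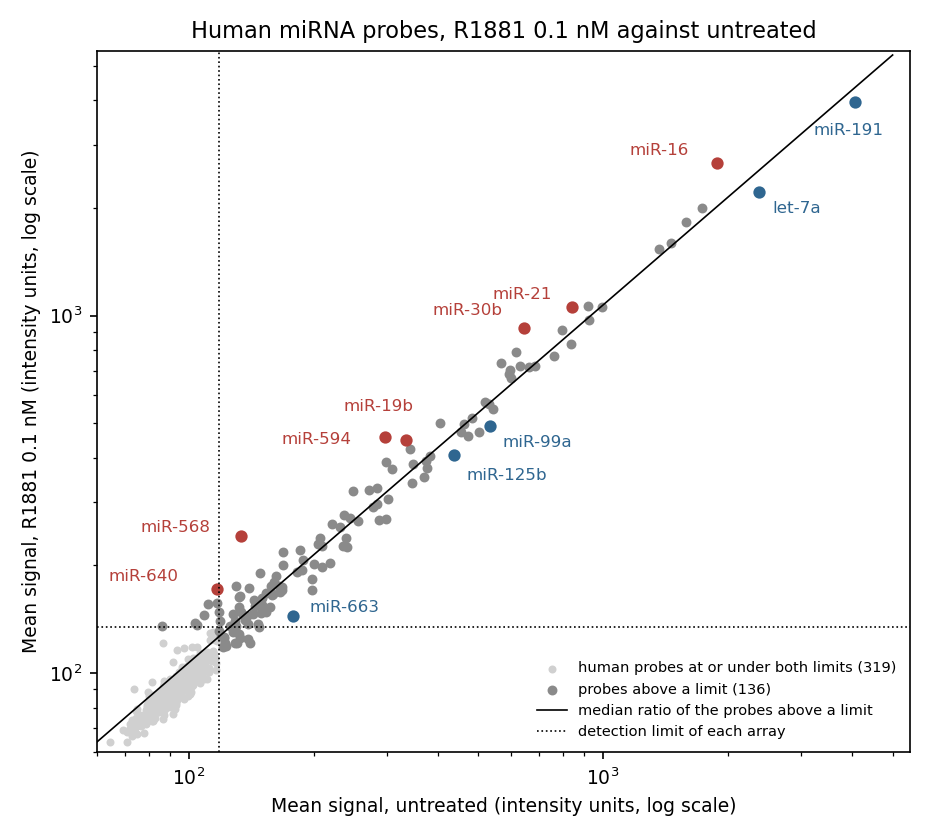
Mean signal of each human miRNA probe at R1881 0.1 nM (vertical axis, intensity units, log scale) against untreated cells (horizontal axis, intensity units, log scale). The solid line is the median ratio of the 136 included miRNAs and the dotted lines are the detection limits; miR-16, miR-30b, miR-594 and miR-568 lie above the line and let-7a, miR-99a and miR-125b a little below it.

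Control probes show how much signal moved where no human miRNA was expected. Among 21 virus, worm and spike probes above a limit, the log2 ratios had a median of −0.03 and an SD of 0.17, and 1, a herpesvirus probe at 0.59, was at least 1.5-fold higher at 0.1 nM. Without that probe the SD of the other 20 was 0.12, against 0.19 for the miRNAs. Of 40 mismatch probes above a limit, 11 (27.5%) were higher by 0.322 or more and 4 were at least 1.5-fold higher, with a median log2 ratio of 0.17. Those 40 were picked by limits set from the mismatch probes themselves, so they are the upper tail of that kind. Over all 594 mismatch probes with signal on both arrays, 12 (2.02%) were higher by 0.322 or more, with a median of −0.14. The 8.09% of the miRNAs lies between that 27.5% and the 4.76% (1 of 21) of the virus, worm and spike probes. However, 5 of the 11 miRNAs behind it were included through the 0.1 nM array alone, where they were higher. Among the 114 miRNAs above the limit on both arrays, 6 (5.26%) were higher by 0.322 or more. The 319 human probes under both limits had a median of −0.14, lower than that of the bright control probes, and the part of background in any single ratio was not tested.

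**Figure D2:**
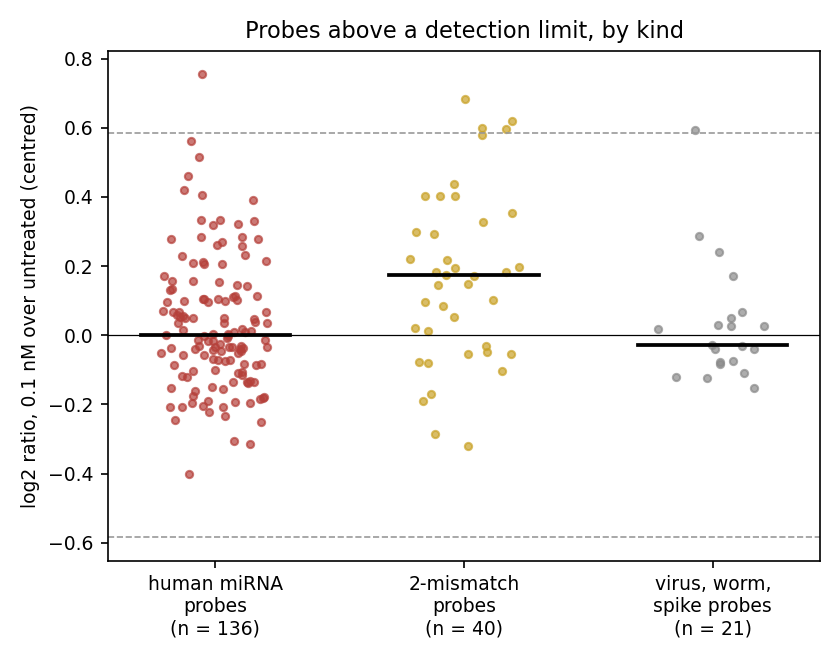
Centred log2 ratio of signal, R1881 0.1 nM over untreated (vertical axis), for probes above a detection limit, by kind of probe, 1 point per probe, with a bar at each median and dashed lines at 1.5-fold. The 136 human miRNA probes and the 21 virus, worm and spike probes spread about 0. The 40 mismatch probes above a limit have a median of 0.17, against −0.14 over all 594 with signal on both arrays (not drawn).

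The clearest differences among bright probes were higher signals of miR-16, miR-30b and miR-594. miR-16, which represses BCL2 and cyclins and restrains the cell cycle, read 2667 units at 0.1 nM and 1880.25 units in untreated cells, a log2 ratio of 0.41 (1.33-fold). miR-30b, of a family tied to epithelial differentiation, read 924.5 units at 0.1 nM and 645.5 units in untreated cells, a log2 ratio of 0.42 (1.34-fold). miR-594 read 456 units at 0.1 nM and 298 units in untreated cells, a log2 ratio of 0.51 (1.43-fold). It is taken as a miRNA by its array name alone, since no mature sequence was used for it here. The mismatch probes of all 3 lay under the limits or, for miR-594 in untreated cells, at 119.5 units, just over the limit of 118. The ratio of each was positive under every alternative setting, at 0.32 to 0.53 for miR-16, 0.26 to 0.59 for miR-30b and 0.45 to 0.81 for miR-594.

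A further group of bright miRNAs was higher by a smaller step. miR-19b, a member of the oncogenic miR-17-92 cluster, read 448.75 units at 0.1 nM and 333.75 units in untreated cells (log2 ratio 0.33, 1.26-fold). miR-29c, a repressor of collagens and DNA methyltransferases, read 390.5 units at 0.1 nM and 299.5 units in untreated cells (0.28, 1.22-fold). miR-148a, an epithelial miRNA that also represses DNA methyltransferase 1, read 735 units at 0.1 nM and 566 units in untreated cells (0.28, 1.21-fold). These 3, with miR-21, stood together at 1.17- to 1.26-fold. miR-21, an oncogenic miRNA that represses PDCD4, read 1054.5 units at 0.1 nM and 841 units in untreated cells, a log2 ratio of 0.23 (1.17-fold).

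miR-568 was the 1 miRNA past 1.5-fold, with 241 units at 0.1 nM and 133.5 units in untreated cells, a log2 ratio of 0.76 (1.69-fold). Its 2-mismatch probe was brighter than the matched one, at 353.5 units at 0.1 nM and 288 units in untreated cells. miR-346 was alike in having a bright mismatch probe, with 175.25 units at 0.1 nM and 130.0 units in untreated cells on the matched probe, and 175.5 units at 0.1 nM on its mismatch probe. Without the 10 miRNAs whose mismatch probe was as bright on an array, a selection made after the data were seen, 0 of 126 reached 1.5-fold in either direction. The other members of the 10 highest ratios were miR-601, with 323.75 units at 0.1 nM and 249.5 units in untreated cells, and miR-214, with 218 units at 0.1 nM and 169 units in untreated cells.

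**Figure D3:**
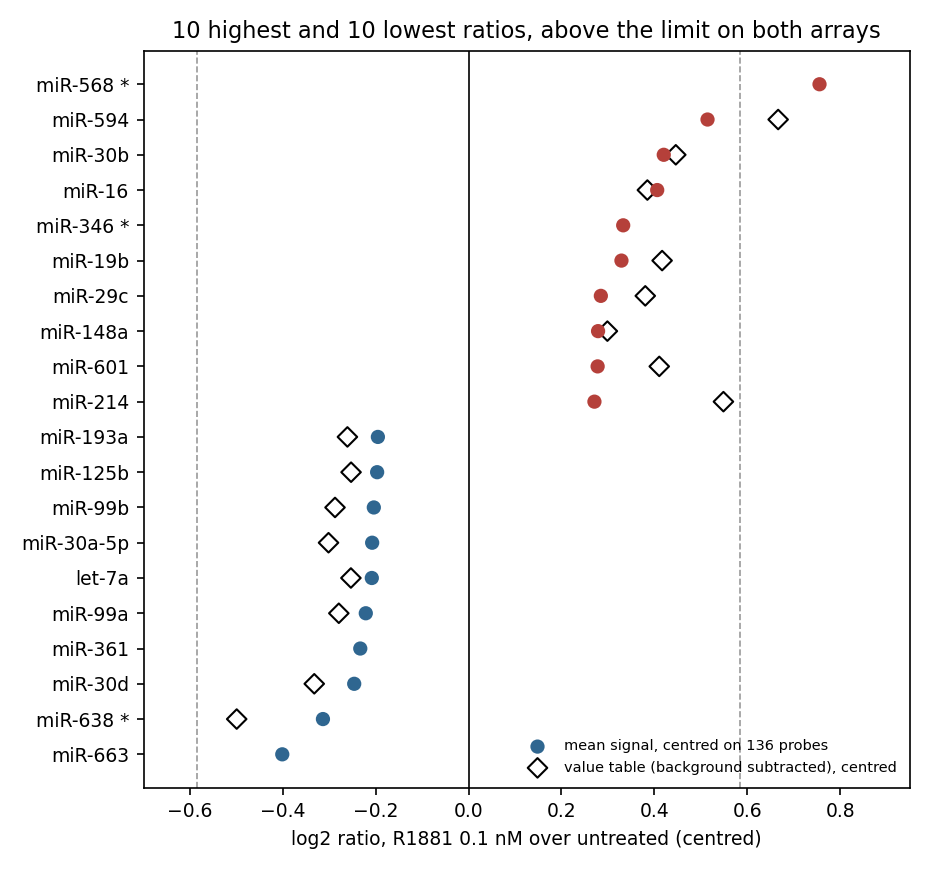
The 10 highest and 10 lowest log2 ratios, R1881 0.1 nM over untreated, among miRNAs above the limit on both arrays; red and blue discs are mean signals centred on the 136 probes, diamonds are the background-subtracted value table, and dashed lines are 1.5-fold. An asterisk marks a miRNA whose 2-mismatch probe was at least as bright on an array; miR-568 as a disc and miR-594 as a diamond lie past the dashed line.

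Subtracting background stretched the ratios of dim probes and left those of bright ones nearly in place. The deposited value table equals the mean signal minus 1 constant per array, 82 units at 0.1 nM and 84.5 units in untreated cells, with probes kept only at 2 or more times that constant. It had values on both arrays for 74 of the 136 miRNAs, with an uncentred median of 1.10-fold (log2 0.14). On its own centred scale 1 of 74 (1.35%) was at least 1.5-fold higher, miR-594, and 0 of 74 (0%) were lower. There miR-594 read 374 units at 0.1 nM and 213.75 units in untreated cells (1.59-fold), and miR-214 read 136 units at 0.1 nM and 84.5 units in untreated cells, a log2 ratio of 0.55 in place of 0.27. Past 0.322 on the log2 scale, 8 of 74 (10.8%) were higher: miR-128b, miR-29c, miR-16, miR-601, miR-19b, miR-30b, miR-214 and miR-594. The 2 lower (2.7%) were miR-638 and miR-30d.

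Some miRNAs crossed the detection limit on 1 array, so a fold can only be given as a lower bound. The bound sets the brighter value against the higher of the dim probe's own value and the lowest included human signal on that array, on the centred scale. miR-640 was at least 1.36-fold higher at 0.1 nM (172 units, against 116.75 in untreated cells), miR-605 at least 1.247-fold and miR-629 at least 1.24-fold. miR-211, encoded within the melastatin gene TRPM1, had a measured log2 ratio of 0.56 from 135.75 units at 0.1 nM and 86 units in untreated cells, but its bound was 1.07-fold. Of the 15 seen in untreated cells only, 8 had a bound above 1. The largest bound was that of miR-375, an epithelial and neuroendocrine miRNA abundant in prostate cancer. It had 121.75 units at 0.1 nM and 140.75 units in untreated cells, at least 1.12-fold lower at 0.1 nM on the centred scale. miR-608 followed at 1.10-fold and miR-623 at 1.05-fold. For miR-623 the bound is above 1 through centring alone. Its untreated signal of 132.75 units was under the lowest included human signal at 0.1 nM, 134.75 units.

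The lowest ratios were smaller in size than the highest. miR-663 read 144.25 units at 0.1 nM and 178 units in untreated cells, a log2 ratio of −0.40, with its mismatch probe at 119 units at 0.1 nM and 135.5 units in untreated cells. miR-638 read 170.5 units at 0.1 nM and 198 units in untreated cells (−0.31), and its mismatch probe read 173 units at 0.1 nM and 168 units in untreated cells. Both are rich in G and C, at 90.9% and 80% of bases. Across the 118 miRNAs with a sequence used here, G plus C content and log2 ratio had a Pearson correlation of −0.19 and a Spearman correlation of −0.12, points that all come from the same pair of arrays.

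Among brighter probes the lowest were miR-30d, miR-99a, let-7a, miR-99b and miR-125b. miR-99a, which represses mTOR, read 489.75 units at 0.1 nM and 533.5 units in untreated cells, a log2 ratio of −0.22 (0.858-fold). miR-125b read 408 units at 0.1 nM and 437 units in untreated cells (−0.20, 0.872-fold). let-7a, a tumour-suppressing repressor of RAS and HMGA2, read 2208 units at 0.1 nM and 2384 units in untreated cells (−0.21, 0.865-fold). All of these lay below the untreated signal before centring as well, miR-99a at 0.918-fold and let-7a at 0.926-fold. miR-30d read 270.0 units at 0.1 nM and 299 units in untreated cells (−0.25). The rest of the 10 lowest were miR-361 (−0.23), miR-30a-5p (−0.21), miR-99b (−0.20) and miR-193a (−0.20), together with miR-663 and miR-638, and all 10 kept a negative sign under each alternative setting that gave them a value.

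The miR-99 and miR-125 group had the lowest centred median of the lists. All 5 of 5 members (miR-125a, miR-125b, miR-100, miR-99a and miR-99b) were below 0, with a median log2 ratio of −0.20 against 0 over all 136 miRNAs and none past 0.322 in size, beside 0.735% lower over all 136. The median was negative under every setting run, although miR-100 and miR-125a lay slightly above the untreated signal before centring, at 1.05- and 1.06-fold. miR-100 read 297 units at 0.1 nM and 283.75 units in untreated cells, and miR-125a read 404 units at 0.1 nM and 381 units in untreated cells. These genes sit with let-7 genes in 3 clusters, on GRCh38.p14 at chr11:122099809-122152296 (minus strand; miR-125b, let-7a, miR-100), chr21:16539101-16590274 (plus strand; miR-99a, let-7c, miR-125b) and chr19:51692618-51693291 (plus strand; miR-99b, let-7e, miR-125a). The 8 mature miRNAs of the 3 clusters were all below 0 on the centred scale, with a median of −0.17. Such clusters were not rare: of 29 genomic clusters with 2 or more included miRNAs, 8, these 3 among them, lay wholly below 0 and 5 wholly above. miR-125b and let-7a are each encoded at more than 1 locus, and the array cannot tell the copies apart.

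The let-7 family as a whole did not follow let-7a. Of 9 members 5 were below 0 and 4 above, with a median of −0.02, and that median was positive without centring (0.08) and under 3 other settings. Summed signal of the family was 6874 units at 0.1 nM and 6776.5 units in untreated cells. let-7c read 459.75 units at 0.1 nM and 472.5 units in untreated cells (−0.14), and let-7e read 226.5 units at 0.1 nM and 235.25 units in untreated cells (−0.15). At the other end miR-98, a member encoded on chromosome X, read 324.5 units at 0.1 nM and 272 units in untreated cells (0.16). let-7d was near the middle at 0.04, from 1597.5 units at 0.1 nM and 1456.5 units in untreated cells.

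**Figure D4:**
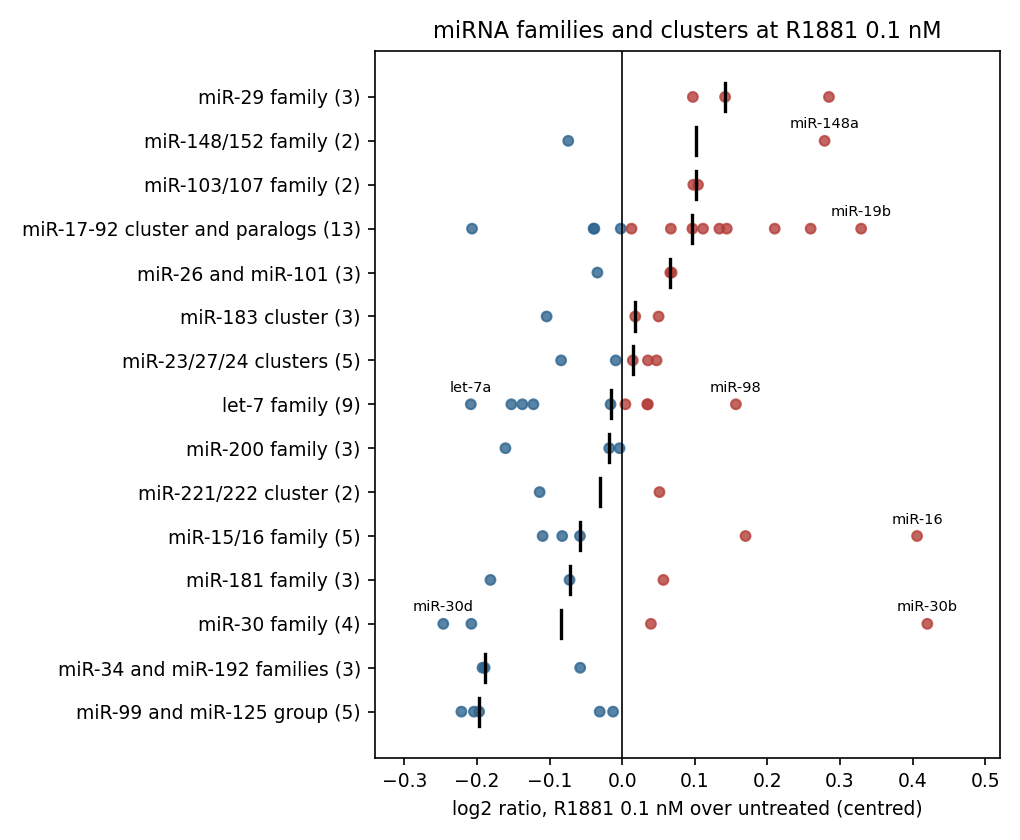
Centred log2 ratio, R1881 0.1 nM over untreated (horizontal axis), of each included member of the miRNA families and clusters listed (vertical axis, number of members in brackets), 1 point per miRNA with a bar at the list median. The miR-29 family lies wholly above 0 and the miR-99 and miR-125 group wholly below, while miR-16 and miR-30b stand apart from their own families.

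The miR-15/16 family, joined by the seed AGCAGCA, split widely. miR-16 at 0.41 was followed by miR-15a at 0.17, from 371.75 units at 0.1 nM and 308.75 units in untreated cells. miR-15b at −0.11 (373.5 units at 0.1 nM, 376.5 in untreated cells), miR-195 at −0.08 (306 units at 0.1 nM, 302.75 in untreated cells) and miR-497 at −0.06 were within 3% of the untreated signal before centring. The family had a range of 0.52. miR-16 is encoded beside miR-15a at chr13:50049027-50049188 (minus strand), where both were above 0, and beside miR-15b at chr3:160404607-160404775 (plus strand), where the partners lay on opposite sides of 0. The array reads the same mature miR-16 from both loci.

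The miR-30 family was split further, over a range of 0.67 between miR-30b at 0.42 and miR-30d at −0.25. Of its 4 included members, 2 were above 0 and 2 below, with a median of −0.08 that was positive without centring (0.01) and under 3 other settings. miR-30c read 571.75 units at 0.1 nM and 519.75 units in untreated cells (0.04), and miR-30a-5p read 183.5 units at 0.1 nM and 198 units in untreated cells. In the miR-148 family, miR-148a stood at 0.28 and miR-148b at −0.07, from 168.5 units at 0.1 nM and 165.75 units in untreated cells, and miR-152 was under both limits.

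The miR-17-92 cluster and its paralogs, which repress E2F1 and CDKN1A, lay mostly above the median. Of 16 listed probes 13 were included, 9 above 0 and 4 below, with a median log2 ratio of 0.10 that was negative after quantile normalization alone (−0.04). 1 of the 13, miR-19b, was higher by 0.322 or more, a share near the 8.09% of all 136 miRNAs. miR-106a read 789 units at 0.1 nM and 616 units in untreated cells (0.26), miR-20b read 499.25 units at 0.1 nM and 403.25 units in untreated cells (0.21), and miR-20a read 705.75 units at 0.1 nM and 596.75 units in untreated cells (0.14). The paralogous cluster at chrX:134169544-134170266 (minus strand; miR-92, miR-19b, miR-20b, miR-106a) had a median of 0.23. The original cluster at chr13:91350618-91351382 (plus strand) had 7 included miRNAs with a median of 0.11, 5 above 0 and 2 below. miR-19b and miR-92 are encoded in both clusters and the array cannot tell the copies apart, so both medians use the same readings of them. The 6 miRNAs with the seed AAAGUGC had a median of 0.13, with 5 above 0.

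Among the listed families and clusters, the miR-29 family had the highest centred median. Genomic clusters taken alone went higher, at 0.23 for the paralogous cluster on chromosome X and 0.29 for miR-16 with miR-15a. Both include miRNAs that are also encoded at another locus. All 3 members of the miR-29 family were above 0, with a median of 0.14, and the median was positive under every setting run. miR-29a read 261 units at 0.1 nM and 221.25 units in untreated cells (0.14), and miR-29b read 722.5 units at 0.1 nM and 631 units in untreated cells (0.10). The paired regulators of metabolism miR-103 and miR-107 stood at 0.10 each, from 1993.5 units at 0.1 nM and 1732.5 units in untreated cells for miR-103, with a median of 0 after quantile normalization.

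Other lists lay near the middle or slightly below. miR-192 and miR-194, targets of p53 encoded together at chr11:64891203-64891425 (minus strand), were both at −0.19, from 225.5 units at 0.1 nM and 240.75 units in untreated cells for miR-192 and from 137.5 units at 0.1 nM and 146.5 units in untreated cells for miR-194. With miR-215 they gave a list median of −0.19 with 0 of 3 above 0 on the centred scale, and that median was negative under every setting run, while miR-34a, miR-34b and miR-34c were under both limits. The miR-23/27/24 clusters (median 0.01, 3 of 5 above 0), the miR-183 cluster (0.02, 2 of 3), miR-26 with miR-101 (0.07, 2 of 3) and the miR-181 family (−0.07, 1 of 3) each had a median whose sign depended on the scaling or background setting. miR-191, the brightest probe on both arrays, read 3956 units at 0.1 nM and 4061.75 units in untreated cells (−0.14).

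miRNAs recalled from the literature as androgen-responsive were then read as lists. Of 13 recalled as raised by androgen, 10 were included, 5 above 0 and 5 below, with a median of 0.03 that was negative after quantile normalization (−0.04), and 0 of 10 were past 0.322 in size, beside 8.09% higher and 0.735% lower over all 136 miRNAs. miR-148a and miR-21 were the highest of these, while miR-125b and miR-193a were the lowest, at −0.20 each. Of 6 recalled as lowered by androgen, all 6 were included, 1 above 0 and 5 below, with a median of −0.13 that stayed negative under every setting run. That list shares miR-99a, miR-99b and miR-100 with the miR-99 and miR-125 group. Of the CDKN1B repressors, miR-221 read 256.75 units at 0.1 nM and 231.5 units in untreated cells (0.05). miR-222 read 137.5 units at 0.1 nM and 139 units in untreated cells (−0.11).

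The labelled cell type was checked against epithelial miRNAs and those of other cell types. For scale, 136 of all 455 human miRNA probes were included. Summed signals count every listed probe and so hold background. The median 2-mismatch probe read 82 units at 0.1 nM and 84.5 units in untreated cells. Of 8 epithelial markers 4 were included: miR-141, miR-200b, miR-200c and, in untreated cells only, miR-375. Their summed signal over all 8 was 1704 units at 0.1 nM and 1686.5 units in untreated cells. miR-205 and miR-203, markers of basal and stratified epithelium, were under both limits. miR-141, which represses ZEB1 and ZEB2, read 354 units at 0.1 nM and 369.75 units in untreated cells (−0.16), and miR-200c read 722 units at 0.1 nM and 683 units in untreated cells (−0.02). Of the blood list 1 of 8 was included (miR-155), with a summed signal of 701 units at 0.1 nM and 713 units in untreated cells. Of the fibroblast and smooth muscle list 1 of 6 was included, miR-214, with summed signals of 638 units at 0.1 nM and 596 units in untreated cells, while miR-143, miR-145 and the miR-199 probes read at most 96 units. Of the muscle list 1 of 6 (miR-206) and of the neural list 2 of 10 (miR-128a and miR-128b) were included, and the liver, embryonic stem cell and placental lists had 0 of 1, 0 of 8 and 0 of 31.

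The same probes can be read on the arrays at 1 and 10 nM, whose ratios share the untreated array with the ratio at 0.1 nM and so are not independent of it. Single ratios at each dose are centred on the median ratio of the same 136 miRNAs at that dose. The 1.5-fold counts at 1 and 10 nM instead use the miRNAs included in each comparison. miR-16 had log2 ratios of 0.41, 0.45 and 0.62 at 0.1, 1 and 10 nM, and miR-21 had 0.23, 0.47 and 0.55. The Bio B spike, a control, also rose, with 362.25, 473.25, 525.5 and 604.75 units at 0, 0.1, 1 and 10 nM. Its log2 ratio at 0.1 nM was 0.29, above that of miR-21. The Bio C spike read 528.5, 592.25, 609 and 774.5 units at those doses. Lambda Spike 8, the remaining spike above a limit, was dimmer at 10 nM (116.5 units) than in untreated cells (119 units). Whether miR-16 or miR-21 rose beyond the spikes was not tested. miR-30b had 0.42, 0.10 and 0.28, from 645.5, 924.5, 767.5 and 979.5 units at 0, 0.1, 1 and 10 nM. miR-99a had −0.22, −0.74 and −0.67, and miR-125b had −0.20, −0.80 and −0.78, so both lay further below the untreated array at the higher doses. In units, miR-125b read 437, 408, 279.5 and 317 at 0, 0.1, 1 and 10 nM. miR-193a lay on both sides of 0, with −0.20, 0.07 and 0.48, from 287, 268.5, 336 and 499.5 units at 0, 0.1, 1 and 10 nM. At 1.5-fold, 2 of 134 miRNAs (1.49%) were higher and 2 (1.49%) lower at 1 nM, and 4 of 136 (2.94%) higher and 4 (2.94%) lower at 10 nM, beside 1 and 0 of 136 at 0.1 nM.

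**Figure D5:**
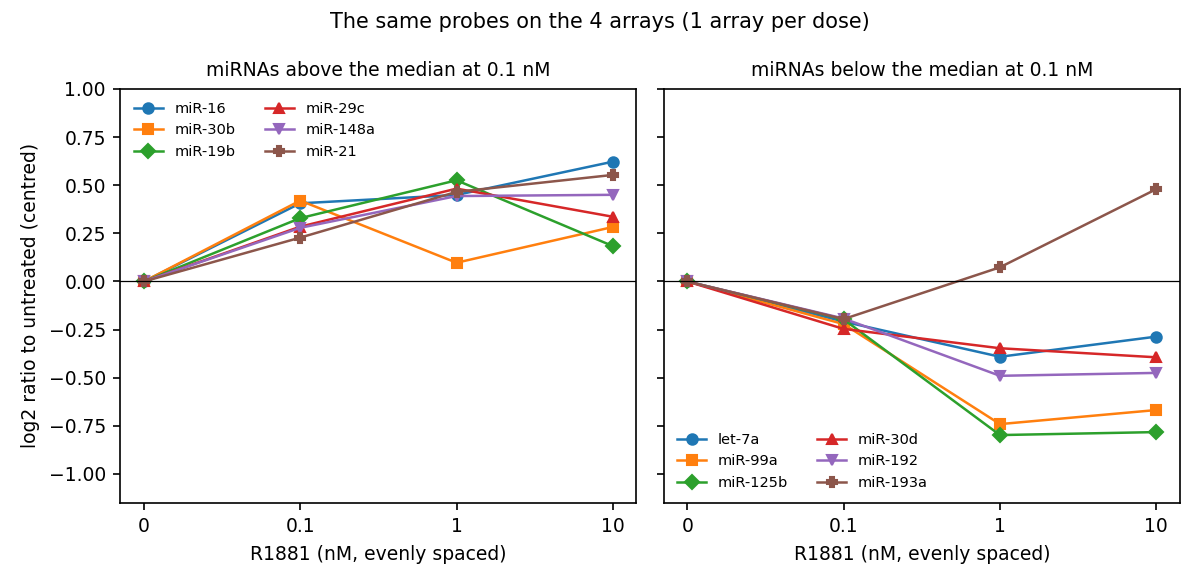
Centred log2 ratio to the untreated array (vertical axis) against R1881 dose (0, 0.1, 1 and 10 nM, evenly spaced) for 6 miRNAs above the median at 0.1 nM (left) and 6 below it (right), 1 array per dose, all ratios sharing the untreated array. miR-99a and miR-125b lie at −0.22 and −0.20 at 0.1 nM and at −0.74 and −0.80 at 1 nM, while miR-193a is at −0.20 at 0.1 nM and 0.48 at 10 nM.

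Probes designed for rodent miRNAs of the same name gave another reading of some miRNAs on the same arrays. Of 31 such probes 22 were above a limit, 17 of them with a ratio on the same side of 0 as the human probe, and the median absolute difference in log2 ratio was 0.09 with a maximum of 0.28. The mouse let-7a probe read 1467 units at 0.1 nM and 1492.5 units in untreated cells (−0.12) and the mouse miR-99a probe read 310.5 units at 0.1 nM and 317.75 units in untreated cells (−0.13), both closer to 0 than the human probes. The mouse miR-106a probe stood at 0.21 and the mouse and rat miR-20b probes at 0.46 and 0.07, against 0.21 for the human miR-20b probe. For miR-211 the mouse probe was under the limits, at 77 units at 0.1 nM and 81.75 units in untreated cells.

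Ratios spread a little more widely among faint probes. In the dimmest 45 of the 136 miRNAs the SD of the log2 ratio was 0.20, with 6 higher by 0.322 or more. All of these 6 except miR-346 were included through the treated array alone, where they were higher. The inclusion rule therefore favoured high ratios among them, and its share in that count and SD was not tested. In the brightest 46 the SD was 0.17, with 4 higher (miR-16, miR-30b, miR-19b and miR-594), and the medians were −0.03 in the dimmest and 0.04 in the brightest.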

How the data were processed

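Mean Signal columns, 1 intensity per probe name on a linear scale, were used as deposited, per the file headers. The scanner and image-analysis settings were not given in the sources used here. The deposited value table holds the same intensity minus 1 constant per array, equal to the median 2-mismatch probe, and served as an alternative. Each array lists 1406 probe names. The titles gave each sample its dose. Log2 ratios of R1881 0.1 nM over untreated were centred on the median of the 136 probes above the 95th percentile of 604 2-mismatch probes (Python 3.11.15, numpy 2.4.6, pandas 2.3.3). limma 3.58.1 in R 4.3.3 gave normexp (offset 50), quantile and cyclic loess alternatives. With 1 array a side no test was made. The ratio step was run on simulated data with 2-fold changes and little noise. Those changes were larger than any ratio in the main setting, so the run does not show how well smaller differences are recovered. Text names the 10 highest and lowest ratios on both arrays, those past 1.5-fold, the largest bounds, the 5 brightest, up to 4 per list and 6 chosen miRNAs. Members and all 25 lists were chosen with earlier results of these data known. Older miRNA names were matched to a RefSeq arm by hand.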

Additional observations from a re-analysis of the deposited data

Results flagged for a closer look

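Probes outside the human miRNA set gave signals at 0.1 nM above the untreated array. The probe for bases 2 to 24 of glycine tRNA read 159.75 units at 0.1 nM and 102.5 units in untreated cells, and a glycine tRNA control probe of the same span read 359 units at 0.1 nM and 240.0 units in untreated cells, log2 ratios of 0.54 and 0.48. Probes for other parts of glycine tRNA were between 90.25 and 100.75 units on both arrays. Of the virus probes, Kaposi sarcoma herpesvirus miR-K12-3 read 342.5 units at 0.1 nM and 212.25 units in untreated cells (0.59). Of the mouse probes, miR-20b read 661.25 units at 0.1 nM and 449 units in untreated cells, miR-431 read 245 units at 0.1 nM and 180.25 in untreated cells, miR-485-3p read 180.5 units at 0.1 nM and 132.5 in untreated cells, miR-709 read 574.5 units at 0.1 nM and 394.5 in untreated cells, and miR-713 read 257.25 units at 0.1 nM and 154 units in untreated cells. With 1 array a side none of these differences was tested.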

How the results depend on the processing

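The count of miRNAs at least 1.5-fold higher at 0.1 nM, 1 in the main setting, was 3 without centring (miR-211, miR-568 and miR-594), 3 when centred on all human probes, 3 with no detection filter, 2 after normexp with centring, 2 after normexp with quantile normalization, 2 after cyclic loess and 11 with the mismatch median subtracted. At a threshold of 0.322 on the log2 scale it was 11 and at 2-fold 0. Chosen after seeing the data, it was 3 in the value table without centring (miR-214, miR-30b and miR-594) and 0 without miRNAs whose mismatch probe was as bright. The count lower, 0 in the main setting, was 2 with the mismatch median subtracted (miR-375 and miR-663), 1 at the threshold of 0.322 and 0 under the other settings. The cause of these shifts was not tested. Of 88 named miRNAs and lists, 50 kept their sign under each setting that gave them a value, of 7 to 11 settings run, and 38 did not. Of 902 recomputed values 867 moved by less than 0.173 log2, the SD of the 21 control probes, and 649 by less than 0.119, their SD without the herpesvirus probe, a comparison added after seeing the data. Settings that changed only the centring or the detection limit shift every single ratio by 1 constant, 0.098 without centring. No value moved by 0.173 under those settings, which was fixed by the small constants. Centring on all human probes and using no detection filter give the same single ratios. These counts therefore overstate how far the values were put to a check. No paired analysis was possible because there was 1 array per dose. Signal over background limits the ratios of probes near the detection limit, and the number of arrays limits all of them.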

Other observations

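Several miRNAs outside the lists also lay on the high side at moderate signal. miR-324-5p read 424.25 units at 0.1 nM and 341.5 units in untreated cells, a log2 ratio of 0.22, while miR-324-3p from the same precursor read 128.75 units at 0.1 nM and 132.25 units in untreated cells (−0.14) and was under the limit at 0.1 nM. miR-345 read 330.0 units at 0.1 nM and 285 units in untreated cells (0.11), and miR-494 read 1060.5 units at 0.1 nM and 921 units in untreated cells (0.11). On the low side miR-574 read 472 units at 0.1 nM and 501 units in untreated cells (−0.18), and miR-31 read 198 units at 0.1 nM and 209 units in untreated cells (−0.18), with −0.15 on the mouse miR-31 probe. These miRNAs were picked after their values were seen.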
